A study of Mus musculus with 6 samples.

Results

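The mitochondrial ribosomal protein genes were followed in lung RNA of 6 wild type mice, 3 fed a control diet and 3 fed a high fat diet. A gene belonged to the set if the platform annotation gave a probe set a single symbol made of Mrpl or Mrps, a number and, in places, a letter from a to c. This selected 156 of 45101 probe sets, which represent 76 of 18194 named genes, 47 named for the large subunit and 29 for the small subunit. Each mouse gave 1 Affymetrix Mouse Genome 430 2.0 array, and the deposited values are MAS5 signals, intensities on a linear scale whose trimmed mean was 500 on every array. All mice carried the wild type genotype, and the sources used here do not give their strain, age or sex or how long they were fed. The labels number separate samples, and p-values measure the spread between these samples.

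The mitochondrial ribosome is the machine inside the organelle that translates the messenger RNAs of mitochondrial DNA, which encode membrane subunits of respiratory complexes and of ATP synthase. All of its proteins are encoded in the nucleus, made in the cytosol and imported, and are assembled around ribosomal RNAs transcribed from mitochondrial DNA. Some of them are counterparts of bacterial ribosomal proteins and others exist only in mitochondrial ribosomes. The names do not always give the place: structures of the mammalian particle show Mrps30 and Mrps18a in the large subunit, and the product of Mrps36 is also known as a component of the oxoglutarate dehydrogenase complex. Lung is not among the tissues richest in mitochondria, and heart muscle and brown fat are.

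The promoters of the set are shown first because they are a property that the choice of members did not use. RefSeq promoters (GRCm38.p6, from 250 bases before to 50 bases after each start) were found for 67 of the 76 genes. None of these 67 had TATAAA in the last 50 bases before the start, against 2.15 percent of tested genes and 2.63 percent of all promoters. The median number of CpG dinucleotides per window, taking the highest where a gene had several promoters, was 21. It was 8 over all genes with a promoter, tested or not. A median over tested genes alone was not taken, so the CpG count is not shown to be particular to the set. On either strand, CCGGAAG, a core site of ETS factors such as GABP, occurred in 37.3 percent of the members and in 18.9 percent of tested genes with a promoter (8.86 percent of all promoters). AAGATGGC, a core of the YY1 site, occurred in 17.9 percent of the members against 5.03 percent (2.75 percent of all promoters). The NRF1 palindrome, GCGC on both sides of AT, occurred in 3 members, Mrpl9, Mrpl32 and Mrpl39, or 4.48 percent against 2.23 percent (0.971 percent of all promoters). A relaxed form of it, GCGC on both sides of any bases in place of AT, occurred in 19.4 percent against 14.3 percent (6.23 percent of all promoters). GGGCGG, a core of the SP1 site, was less frequent in the members than in tested genes, in 50.7 percent against 67.0 percent (35.7 percent of all promoters). So was CCAAT, in 38.8 percent against 42.1 percent (37.4 percent of all promoters). Overlap between matches of different motifs was not examined, and a match is a description and not a measured site. The 250 bases before the start are printed for Mrpl52 and Mrpl39, which rose on the high fat diet. Capitals mark matches of CCGGAAG, AAGATGGC and the NRF1 palindrome only. They show CCGGAAG read on the other strand in Mrpl52 and the NRF1 palindrome in Mrpl39. The Mrpl39 stretch also holds CCAAT, which is not marked. The Mrpl52 stretch is chr14:54426659-54426908 on the plus strand and the Mrpl39 stretch is chr16:84735245-84735494 on the minus strand.
Mrpl52: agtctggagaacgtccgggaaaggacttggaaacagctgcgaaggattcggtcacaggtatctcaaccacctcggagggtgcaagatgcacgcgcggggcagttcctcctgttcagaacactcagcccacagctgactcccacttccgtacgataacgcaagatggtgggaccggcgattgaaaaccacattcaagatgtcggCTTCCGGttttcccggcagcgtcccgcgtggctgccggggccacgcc
Mrpl39: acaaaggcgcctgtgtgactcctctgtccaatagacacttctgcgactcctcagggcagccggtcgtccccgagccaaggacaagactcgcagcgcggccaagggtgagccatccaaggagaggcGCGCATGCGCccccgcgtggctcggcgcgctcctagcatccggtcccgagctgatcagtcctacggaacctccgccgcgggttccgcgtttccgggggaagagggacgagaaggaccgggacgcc

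Lungs of high fat mice had higher signals for 7 mitochondrial ribosomal protein genes, and none of the set was called lower. The genes that rose were Mrpl52, Mrpl39, Mrpl23 and Mrpl13 of the large subunit and Mrps21, Mrps6 and Mrps16 of the small subunit, by 1.37-fold to 2.85-fold. A call is a limma adjusted p under 0.05 over 12689 genes, each represented by its brightest probe set. The share of members called higher was 9.21 percent, against 4.56 percent of all genes tested, and the 0 members called lower compare with 2.2 percent. Calls in either direction made up 6.75 percent of all genes. At an unadjusted limma p under 0.05, 24 members were higher and 4 lower, where 16.2 and 9.29 percent of all genes were. The median log2 difference, high fat minus control, was 0.19 over the 76 genes and 0.06 over all genes tested. In all, 57 members (75 percent) had a positive difference, against 56.4 percent of all genes. The middle of the set, from its lower to its upper quartile, lay between 0 and 0.35 on the log2 scale.

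**Figure D1:**
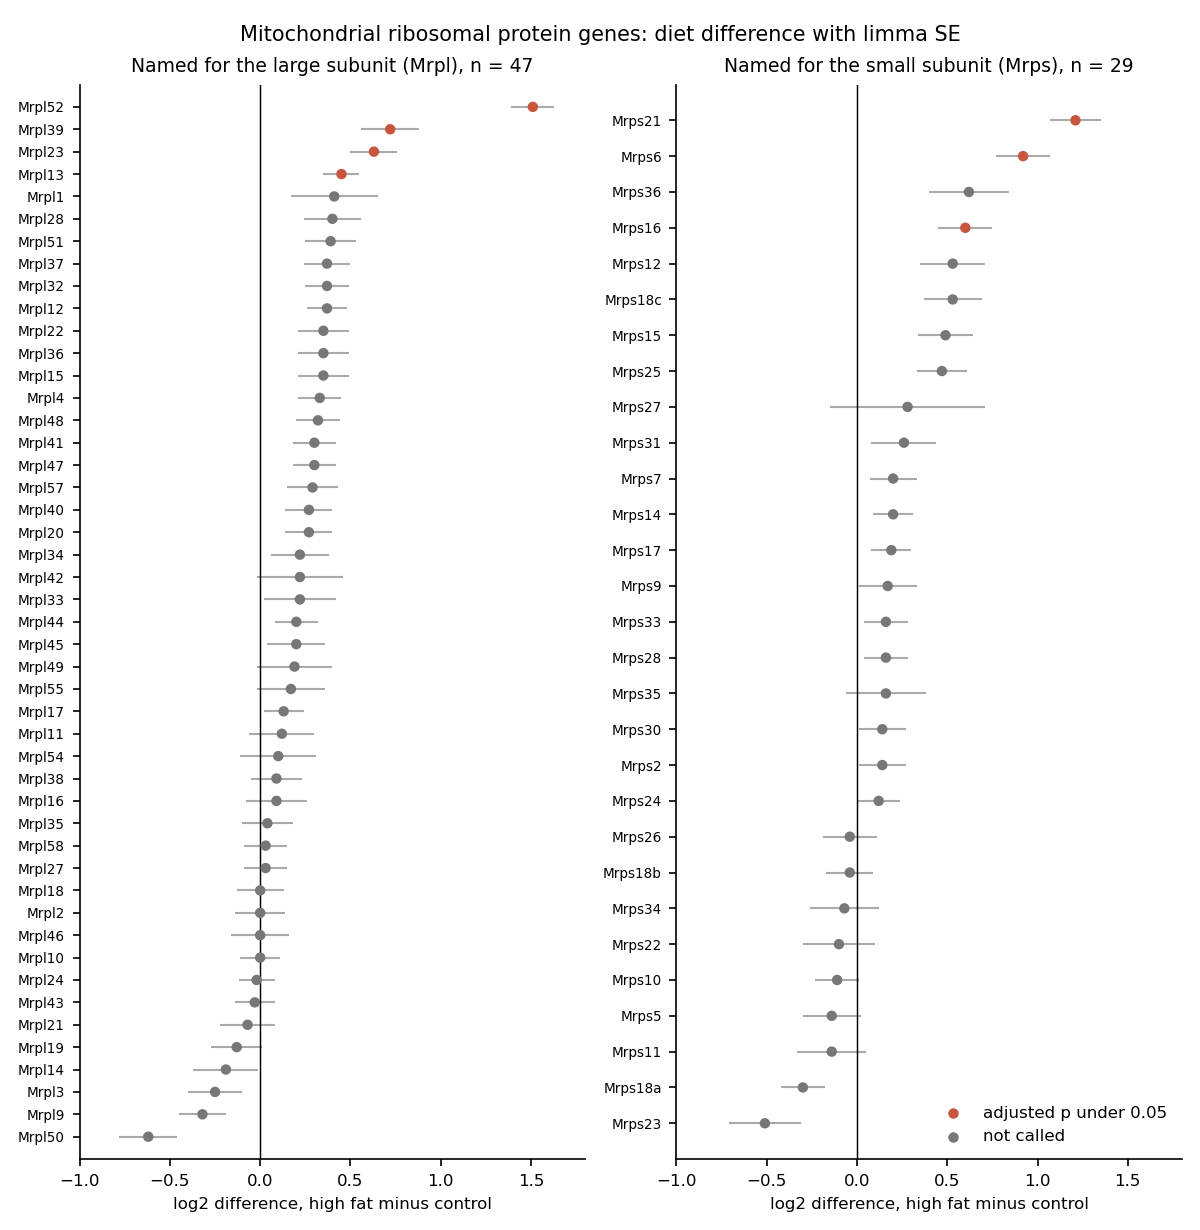
Log2 difference between high fat and control mice for each of the 76 genes (points, horizontal axis) with the limma standard error (lines), for 47 genes named for the large subunit (left) and 29 named for the small subunit (right). The 7 called genes, in red, lie between 0.45 and 1.51, and most of the others lie within 0.5 of 0.

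The 7 genes that rose are described one by one. Mrpl52 encodes a large subunit protein without a bacterial counterpart. Its signals were 618, 719 and 647 on the control diet against 2006, 1893 and 1762 on the high fat diet. Every high fat mouse lay far above every control mouse. The means were 661 ± 51.7 and 1887 ± 122 (SD, n = 3 each), a 2.85-fold difference (log2 1.51, SE 0.12, limma adjusted p = 0.00131). Its 2 other tested probe sets differed by 1.42 and 1.05 on the log2 scale and were also called over all probe sets (limma adjusted p = 0.00238 and 0.00961). A dimmer probe set of Mrpl52 failed the filter and was lower in high fat mice (log2 -0.88). With all its probe sets averaged, Mrpl52 was at 0.77 and still called (limma adjusted p = 0.0263).

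Mrps21 is the counterpart of a protein of the small bacterial subunit. Its signals were 575, 443 and 577 on the control diet against 1278, 1225 and 1170 on the high fat diet. The groups were well apart, with the smaller spread in high fat mice (532 ± 76.6 and 1225 ± 54.1, SD, n = 3 each). The difference was 2.32-fold (log2 1.21, SE 0.14, limma adjusted p = 0.00441). The 2 tested probe sets of Mrps21 disagreed, since the dimmer one had a log2 difference of -0.71 and was not called (limma adjusted p = 0.0627 over probe sets). Its signals were 219.2, 255.6 and 232 on the control diet against 142.8, 165.7 and 124.3 on the high fat diet, so these groups were also apart, in the other direction. With the mean of both probe sets, Mrps21 was at 0.25 and was not called (limma adjusted p = 0.278).

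Mrps6, the counterpart of a bacterial protein of the subunit's platform, had signals of 1023, 937 and 910 on the control diet against 2089, 1481 and 1920 on the high fat diet. High fat replicate 2 was the lowest of its group and still above all controls. The difference was 1.9-fold (log2 0.92, SE 0.15, limma adjusted p = 0.0125), and the second probe set differed by 0.64 (limma adjusted p = 0.0231 over probe sets). In RefSeq, Mrps6 overlaps Slc5a3, the gene of the inositol transporter SMIT1, on the same strand. Slc5a3 was itself called higher (log2 1.02, limma adjusted p = 0.0207). Mrps6 was the only called member that overlapped another protein-coding gene, out of 19 members that did. Whether its probe sets share sequence with Slc5a3 transcripts was not tested.

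Mrpl39, a large subunit protein found only in mitochondrial ribosomes, had signals of 2944, 2459 and 2668 on the control diet against 5646, 4027 and 3818 on the high fat diet. High fat replicate 1 stood well above the other high fat mice, which were above all controls. The difference was 1.65-fold (log2 0.72, SE 0.16, limma adjusted p = 0.0355). The second probe set was at 0.37 and was not called (limma adjusted p = 0.152 over probe sets).

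Mrpl23, whose bacterial counterpart lies at the exit of the peptide tunnel, had signals of 1417, 1447 and 1237 on the control diet against 2332, 2155 and 1880 on the high fat diet (1.55-fold, log2 0.63, SE 0.13, limma adjusted p = 0.0254). Mrps16, a small subunit protein whose loss in humans impairs mitochondrial translation, had signals of 1192, 870 and 961 against 1672, 1405 and 1481 (1.52-fold, log2 0.6, SE 0.15, limma adjusted p = 0.0465). Mrpl13, the counterpart of a protein of early large subunit assembly, had signals of 2258, 2303 and 2410 against 3307, 3280 and 2970 (1.37-fold, log2 0.45, SE 0.1, limma adjusted p = 0.0384). In none of these 3 genes did the groups overlap. The 2 other tested probe sets of Mrpl13 were at 0.44 and 0.21 and were not called (limma adjusted p = 0.107 and 0.557 over probe sets), and one that failed the filter was at -1.6.

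**Figure D2:**
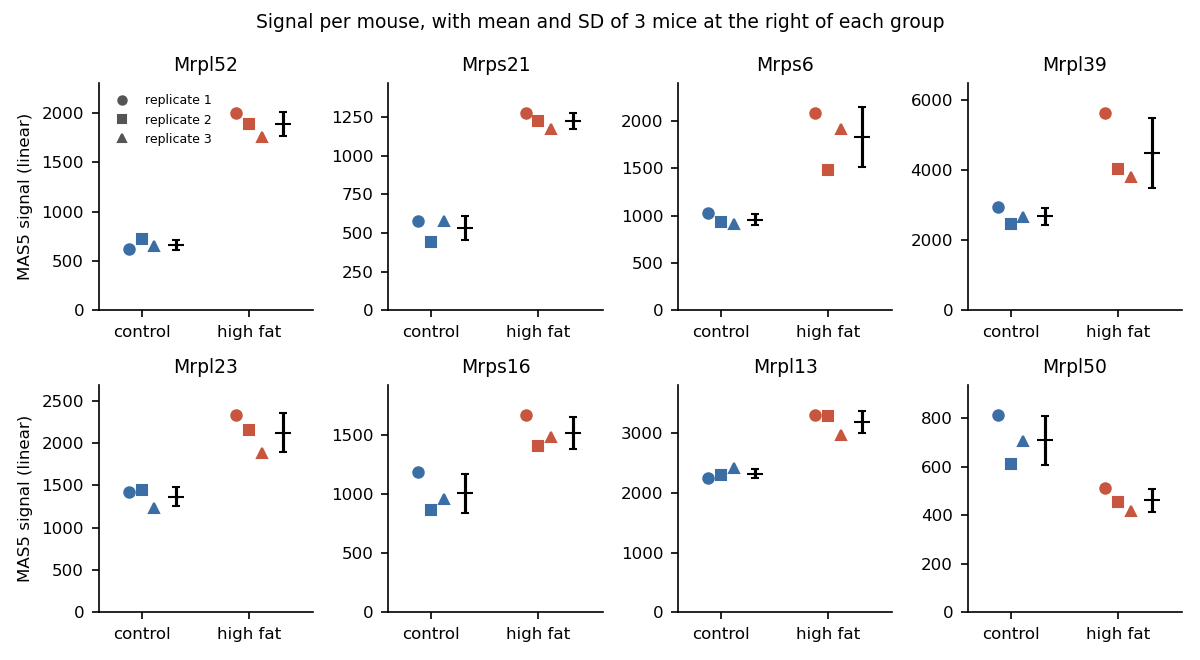
MAS5 signal on a linear axis from 0 in each mouse (circle, square and triangle for replicates 1, 2 and 3), with the mean and SD of 3 mice beside each group, for the 7 called genes and for Mrpl50. Control and high fat mice do not overlap in any of the 8 panels; Mrpl50, which was not called, is the only one with lower values on the high fat diet.

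These calls held to different degrees when 1 mouse was left out. Mrpl52 and Mrps21 stayed called in each of the 6 fits with 1 mouse left out, with log2 differences of 1.47 to 1.57 and 1.09 to 1.28. Mrps6 stayed called in 4 of 6 (limma adjusted p up to 0.0581, without control replicate 3). Mrpl23, Mrpl39 and Mrps16 were each called in 1 of 6 (up to 0.102 and 0.146 for Mrpl23 and Mrps16 without control replicate 3 and 0.12 for Mrpl39 without control replicate 2), and Mrpl13 in 0 of 6 (up to 0.114, without control replicate 2). The log2 differences of these genes stayed positive, at 0.82 to 1.07 for Mrps6, 0.56 to 0.72 for Mrpl23 and 0.55 to 0.83 for Mrpl39. Those of Mrps16 and Mrpl13 were 0.5 to 0.73 and 0.43 to 0.5. Leaving out control mice 1, 2 and 3 in turn left 5, 3 and 2 members called higher, and leaving out high fat mice 1, 2 and 3 left 3, 3 and 6. The share of all genes called higher fell in the same fits, from 4.56 percent to 2.1, 1.29 and 1.03 percent and to 2.86, 2.24 and 2.81 percent.

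Some members were higher in every high fat mouse than in any control mouse without passing the test. The groups did not overlap for 30 members with the high fat mice above, the 7 called genes among them (39.5 percent, against 19.7 percent of all genes) and for 5 with the high fat mice below (6.58 percent, against 12.1 percent). Mrps36, whose product is known as a component of oxoglutarate dehydrogenase, had signals of 698, 458 and 721 against 1189, 879 and 799 (log2 0.62, SE 0.22, limma adjusted p = 0.12). Genes chosen after their values were seen show the same kind of difference. Mrpl12, the stalk protein that recruits translation factors and also binds the mitochondrial RNA polymerase, was at 999, 1117 and 1027 against 1388, 1270 and 1393 (log2 0.37, limma adjusted p = 0.0907). Mrps12, a protein of the decoding centre, was at 1067, 708 and 694 against 1086, 1230 and 1193 (log2 0.53, limma adjusted p = 0.106). In Mrps12, control replicate 1 lay just below the lowest high fat mouse.

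Other members showed almost the same level in both groups. Mrpl10, which anchors the stalk, had signals of 1207, 1184 and 1254 on the control diet against 1224, 1212 and 1196 on the high fat diet (log2 0, SE 0.11). Mrps18b had signals of 587, 565 and 586 against 571, 557 and 565 (log2 -0.04, SE 0.13). Mrpl58, a peptidyl-tRNA hydrolase that rescues stalled ribosomes and is also part of the particle, was at 1930 ± 187 and 1963 ± 139 (SD, n = 3 each). These 3 genes were chosen after their values were seen.

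At the lower end, the 6 most negative differences were those of Mrpl50, Mrps23, Mrpl9, Mrps18a, Mrpl3 and Mrpl14, and none was called. Mrpl50, a large subunit protein without a bacterial counterpart, had signals of 814, 612 and 705 on the control diet against 513, 456 and 417 on the high fat diet. All high fat mice lay below all control mice, but the gene missed the threshold (log2 -0.62, SE 0.16, limma adjusted p = 0.0538). It passed when the same p-values were adjusted over all probe sets (limma adjusted p = 0.0386), and its dimmer probe set was at -0.09. Mrps23, a small subunit protein found only in mitochondrial ribosomes, was at 955, 886 and 994 against 875, 494 and 677 (log2 -0.51, SE 0.2, limma adjusted p = 0.155). The other tested probe sets of Mrps23 were at -0.06 and, for the dimmest, -0.58 and were not called (limma adjusted p = 0.821 and 0.32 over probe sets). Mrpl9 was at 1246, 1026 and 1224 against 971, 936 and 887 (log2 -0.32, SE 0.13, limma adjusted p = 0.157). Mrps18a was at 1091, 1209 and 1246 against 894, 986 and 1002 (log2 -0.3, SE 0.12, limma adjusted p = 0.161). The groups of these 4 genes did not overlap, whereas those of Mrpl3, a protein near the peptidyl transferase centre (log2 -0.25), and of Mrpl14 (log2 -0.19) did. With each array centred on its median, Mrpl3 and Mrpl14 turned to 0.03 and 0.09.

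Both subunits showed similar distributions. Of 47 genes named for the large subunit, 4 rose (8.51 percent) and 0 fell (median log2 difference 0.2). Of 29 named for the small subunit, 3 rose (10.3 percent) and 0 fell (median 0.16). Over all genes, 4.56 percent were called higher and 2.2 percent lower. In a grouping by name made after the values were seen, Mrpl numbers up to 36 and Mrps numbers up to 21 stand for proteins with bacterial counterparts. Of these 43 genes, 5 rose (11.6 percent, median 0.19), and of the 33 mitochondria-specific genes, 2 rose (6.06 percent, median 0.19). None of the 13 mitochondria-specific genes named for the small subunit, which include Mrps30 and Mrps36, was called (median 0.16). At an unadjusted limma p under 0.05, 2 were higher and 1 lower, where 16.2 and 9.29 percent of all genes were. A group of 13 can hold no call at the share of all genes, so its lack of calls is no result about it. Differences between these groups were not tested.

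Probe sets of the same gene did not always agree. Of the 156 probe sets, 129 passed the filter on dim signals, a mean signal of 70.3 or more, and at least 1 probe set of each of the 76 genes was among them. Over probe sets, 12 members were called higher (9.3 percent, against 4.63 percent of all tested) and 2 lower (1.55 percent, against 8.27 percent), with 12.9 percent of all tested probe sets called in either direction. The higher ones were the representatives of the 7 called genes, both further tested probe sets of Mrpl52, the second of Mrps6, and single probe sets of Mrpl28 (log2 0.62, limma adjusted p = 0.0253) and Mrpl41 (log2 0.71, limma adjusted p = 0.0211). The lower ones belonged to Mrpl50 and Mrpl15. Of 31 genes with several tested probe sets, 18 had 1 sign throughout and 13 had both signs. The share with both signs over all genes was not taken, so this is not shown to be particular to the set. Some of the opposite signs rest on small differences, such as -0.05 in Mrpl44. The 13 were Mrpl1, Mrpl3, Mrpl11, Mrpl15, Mrpl27, Mrpl38, Mrpl44, Mrps2, Mrps5, Mrps9, Mrps14, Mrps15 and Mrps21. In Mrpl15 the brightest probe set was at 0.35 and a dim one at -1.16 (limma adjusted p = 0.0399 over probe sets). The names of both mark probes that can match other transcripts, and the brightest Mrpl15 probe set without such a mark was at -0.03.

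The sign of a probe set went with its brightness. Among member probe sets below the 40th percentile of mean signal, which were not tested, 7 of 27 had a positive difference (median log2 difference -0.55, against -0.25 for all probe sets in that range). Between the 40th and 60th percentiles, 10 of 24 were positive (median -0.24, against -0.27). Between the 60th and 80th, 24 of 43 were positive (median 0.09, against -0.05), and above the 80th, 49 of 62 were positive (median 0.25, against 0.05). Control arrays had median signals of 143.3 to 150.3 and high fat arrays of 113.4 to 128.7, at the same trimmed mean.

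**Figure D3:**
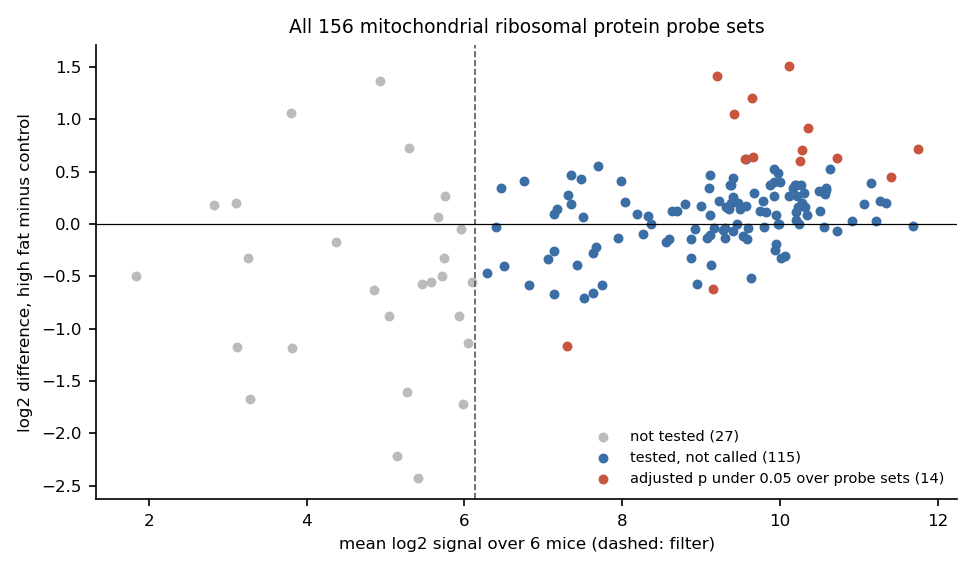
Log2 difference (high fat minus control, vertical axis) against mean log2 signal (horizontal axis) for all 156 member probe sets. Grey points left of the dashed filter line were not tested (27), and red points were called over probe sets (14, of which 12 are above 0).

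The scaling of the arrays affected how many members were called. With each array centred on the median of its probe sets, the median of all genes moved from 0.06 to 0.33 and that of the members from 0.19 to 0.46, so that members stood 0.13 above all genes under both scalings. Called members then numbered 33 higher and 0 lower, while over all genes calls went from 578 higher and 279 lower to 3051 higher (24 percent) and 146 lower. Quantile normalization gave 7 higher and 0 lower, with the members 0.09 above all genes.

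Mice differed in how high the set stood. The median deviation of the 76 genes from the control mean was 0.03, -0.06 and 0.05 on the log2 scale in the control mice and 0.28, 0.16 and 0.18 in the high fat mice, while that of all genes was -0.01 to 0.01 and 0.05 to 0.07. High fat replicate 1 held the highest signal of the 6 mice for 34 members (44.7 percent, against 22.8 percent of all genes). Control replicate 2 held the lowest signal for 30 members (39.5 percent, against 19.8 percent). Without high fat replicate 1 the median of the set was 0.12, and Mrpl52, Mrps21 and Mrps6 were called.

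**Figure D4:**
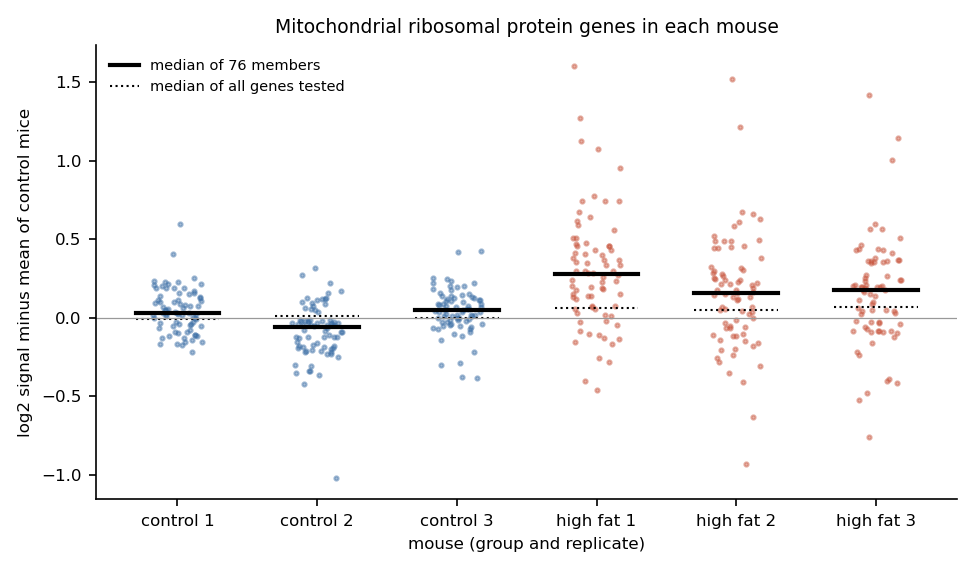
Log2 signal of each of the 76 genes minus its mean in control mice (points, vertical axis) in each of the 6 mice, with the median of the set (thick line) and of all genes tested (dotted line). The thick line is above the dotted one in all high fat mice, by most in replicate 1 (0.28 against 0.06).

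Markers of fat and muscle differed between these mice. Summed signals of 12 tested adipocyte markers of 14 were 11492 to 19508 in control mice and 33892 to 51593 in high fat mice, and those of 6 tested brown fat markers of 9 were 1262 to 1870 and 2487 to 7660. Summed signals of 14 cardiac muscle markers of 14 were 24313 to 55008 and 49773 to 191305, and those of 13 skeletal muscle markers of 15 were 2113 to 91052 and 3687 to 35167. The adipocyte and brown fat sums did not overlap between diets, and the cardiac and skeletal sums did. Marker by marker, 7 of 12 adipocyte, 1 of 6 brown fat and 1 of 14 cardiac genes were called higher and 0 lower (4.56 percent of all genes were called higher). Their median log2 differences were 1.94, 1.99 and 1.18, and 13 of the 14 cardiac markers had a positive difference. The skeletal markers had a median log2 difference of -0.87 with 0 called. High fat replicate 1 had the highest adipocyte, brown fat and cardiac sums of the 6 mice, and control replicate 2 the lowest cardiac and skeletal sums. No tested marker was at 0, and the brown fat uncoupling protein Ucp1 had signals of 2.73, 25.1 and 258 on the control diet against 1199, 236 and 748 on the high fat diet. The part of these tissues in the differences was not tested, and in whole lung a change in the number of cells of a type cannot be told apart from a change in RNA per cell. Of 13 lung epithelial markers none was called, with 3 higher and 0 lower at an unadjusted limma p under 0.05. In all, 11 of the 13 had a positive difference. For 5, every high fat mouse lay above every control mouse (38.5 percent, against 19.7 percent of all genes). Among these were Sftpb (19820 to 22579 and 23049 to 27594), Sftpd (17444 to 21948 and 24134 to 27212) and Ager (25750 to 33041 and 34849 to 36378). The groups of the surfactant gene Sftpc overlapped, with signals of 32996 to 69407 and 45581 to 57324. The 3'/5' signal ratio of control transcripts, a sign of RNA length, was 0.743 to 0.795 in control and 0.854 to 0.957 in high fat mice for Gapdh, and 1.19 to 1.44 and 1.5 to 1.55 for b-Actin. Summed signals of immune markers, control before high fat, were 5453 to 7853 and 1984 to 4209 for 9 B lineage genes of 9, 3704 to 4730 and 2021 to 3130 for 10 T and NK cell genes of 11, 31719 to 35441 and 17733 to 34183 for 12 macrophage genes of 12, and 5893 to 16397 and 2386 to 7531 for 7 neutrophil genes of 9. The B lineage and T and NK cell sums were lower in every high fat mouse than in any control mouse, and the macrophage and neutrophil sums, to which bright genes contribute most, overlapped between diets. Gene by gene, 4 of 9 B lineage, 3 of 10 T and NK cell, 4 of 12 macrophage and 2 of 7 neutrophil markers were called lower and none higher. Of all genes tested, 2.2 percent were called lower and 4.56 percent higher. The median log2 differences of these 4 lists were -0.98, -0.8, -0.56 and -1.47. The part of RNA length and immune cells was not tested either. Without replicate 1 of both groups, the mice with the highest skeletal muscle sums, 4 members were called higher, Mrpl52, Mrps21, Mrps6 and Mrps12, and 0 lower (median 0.15).

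Calls in the machinery around the mitochondrial ribosome stand beside 4.56 percent of all genes called higher and 2.2 percent called lower. At an unadjusted limma p under 0.05, these shares were 16.2 and 9.29 percent. Lists as short as those here and in the paragraphs that follow hold few or no calls at such shares. Low counts are therefore no result about these lists. Of 4 ribosomal proteins that go by other names, none was called, and Dap3, a GTP-binding protein of the small subunit, was at 1599 ± 133 and 1981 ± 121 (SD, n = 3 each; log2 0.31, limma adjusted p = 0.139). Gadd45gip1 had the largest difference of the 4 and went the other way, with overlapping groups at 317 ± 156 and 180 ± 44.2 (SD, n = 3 each; log2 -0.7, limma adjusted p = 0.286). Chchd1 and Ptcd3 were both at 0.04 (limma adjusted p = 0.898 for each). Of 24 tested assembly factors none was called, with 2 higher and 1 lower at an unadjusted limma p under 0.05 (median log2 difference 0.1). Those with the smallest p were Dhx30, an RNA helicase of assembly (log2 0.34, limma adjusted p = 0.0952), Tfb1m, which methylates the small ribosomal RNA (log2 0.64, limma adjusted p = 0.101), the GTPase Mtg2 (log2 -0.67, limma adjusted p = 0.147) and Rcc1l (log2 0.35, limma adjusted p = 0.351).

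Of 15 translation factors and mRNA-handling proteins, 1 rose and 0 fell (median 0.07). The gene that rose was Slirp, an RNA-binding protein that stabilises mitochondrial messenger RNAs together with Lrpprc. It went from 481 ± 29.9 to 1032 ± 79.7 (SD, n = 3 each; 2.14-fold, log2 1.1, limma adjusted p = 0.00441). Lrpprc itself was at 0.33 and was not called (limma adjusted p = 0.131), nor were Oxa1l, the insertase that receives new chains at the inner membrane (log2 0.43, limma adjusted p = 0.14), and the elongation factor Guf1 (log2 -0.43, limma adjusted p = 0.287). Of 19 mitochondrial tRNA synthetases and related enzymes none was called, with 1 higher and 2 lower at an unadjusted limma p under 0.05, and the median was -0.05. Sars2, the mitochondrial seryl-tRNA synthetase, was at 0.67 (limma adjusted p = 0.156), and Gatc, Kars, which also serves the cytosol, and Rars2 were at -0.34, -0.24 and -0.28 (limma adjusted p = 0.147, 0.193 and 0.225).

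Of 13 genes of mitochondrial DNA transcription and maintenance, 0 rose and 1 fell (median 0.02). Dguok, the kinase that supplies purine nucleotides for mitochondrial DNA, fell from 1023 ± 98.5 to 667 ± 18.7 (SD, n = 3 each; log2 -0.61, limma adjusted p = 0.0285). The helicase Twnk was at 0.52, the exonuclease Mgme1 at 0.57 and the polymerase subunit Polg2 at -0.41 (limma adjusted p = 0.108, 0.155 and 0.262). Of 16 regulators of nuclear genes for mitochondrial proteins none was called, with 2 higher and 0 lower at an unadjusted limma p under 0.05. Nfe2l2 and Sirt1 were at 0.34 and 0.31 and Nrf1 at -0.46 (limma adjusted p = 0.136, 0.187 and 0.208), and Ppargc1b, a coactivator of such genes, was at 0.5 (limma adjusted p = 0.295). Dlst and Ogdh, partners of Mrps36 in oxoglutarate dehydrogenase and chosen after their values were seen, rose 1.73-fold and 1.49-fold (limma adjusted p = 0.0126 and 0.0477). Dld, the dehydrogenase that completes the complex, was at 0.21 with overlapping groups (limma adjusted p = 0.532). These genes come from a list of 27 general mitochondrial genes, of which 4 rose (14.8 percent) and 0 fell (median 0.2).

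Subunits of the respiratory complexes were called at a higher share in the same arrays. Of 33 complex I subunits tested, 15 rose (45.5 percent, median log2 difference 0.59), and of 38 subunits of complexes II to V, 16 rose (42.1 percent, median 0.51). Of 44 cytosolic ribosomal proteins, 12 rose (27.3 percent, median 0.12). None of these 3 lists had a member called lower. These shares stand beside 9.21 percent for the mitochondrial ribosome and 4.56 percent for all genes. Differences between the lists were not tested.

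**Figure D5:**
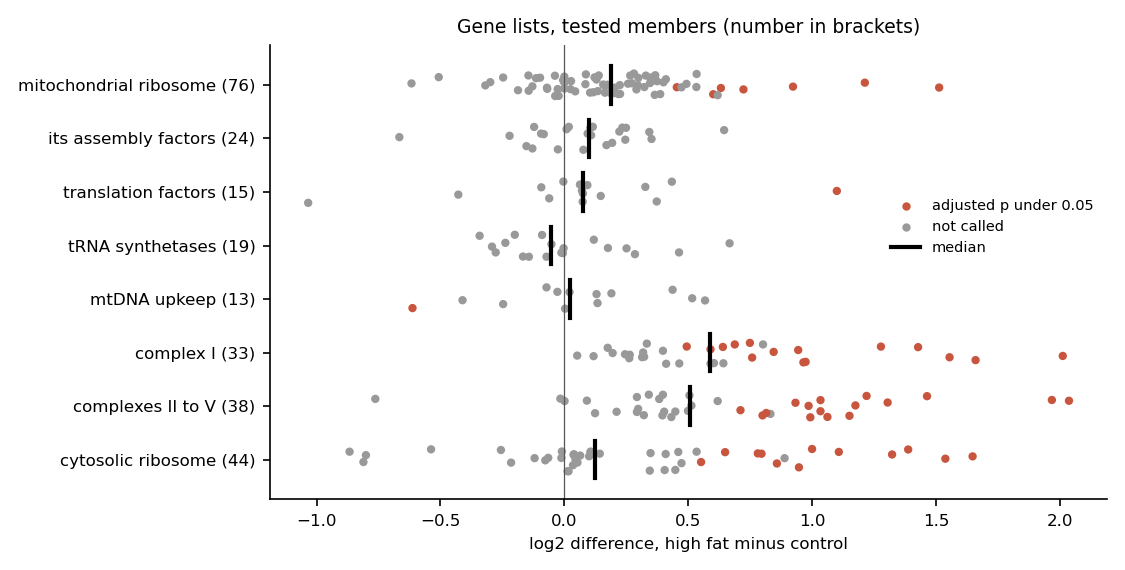
Log2 difference (high fat minus control) of every tested member of 8 gene lists, 1 row each, with the median as a black bar and called genes in red. The 76 mitochondrial ribosomal genes centre at 0.19, below the respiratory complexes at 0.59 and 0.51.

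Position in the genome joined some members to other genes. In RefSeq, 22 of 67 members with a promoter (32.8 percent, against 16.9 percent of tested genes) started head to head with another gene whose start lay at most 500 bases upstream on the other strand. Mrpl46 and Mrps11 formed such a pair within the set and were at 0 and -0.14 on the log2 scale. Other partners included mitochondrial genes, with Sars2 beside Mrps12, Twnk beside Mrpl43 and the complex I gene Ndufb5 beside Mrpl47 (0.67 and 0.53, 0.52 and -0.03, and 0.24 and 0.3, partner first). None of the 16 tested partners outside the set was called, where 6.75 percent of all genes were called in either direction. At that share a group of 16 can hold no call, so this is no result about the partners. Members with a head-to-head partner had a median log2 difference of 0.1 and those without one 0.2. Members with CCGGAAG in the promoter had a median log2 difference of 0.16 and those without it 0.2, those with and without AAGATGGC 0.21 and 0.19. Of the called genes, 3 held CCGGAAG in the full window and 0 held AAGATGGC, and Mrpl13 had no promoter to search. Over all members with a promoter the shares were 37.3 and 17.9 percent. A group this small can hold such counts at those shares, so they are no result about the called genes.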

How the data were processed

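Per the labels' protocols, lung total RNA was isolated using Qiagen RNeasy and carried a biotin label. The deposited intensity values are MAS5 output, per the submitters' processing notes; its version and settings were not given in the sources used here. Because MAS5 removes mismatch signal, low values are noisy, and a common trimmed mean takes out differences in total signal. Symbols came from the platform annotation and all 156 member probe sets matched a RefSeq entry (GRCm38.p6) by Entrez identifier.

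Values were floored at 1 and converted to log2. Control probe sets (64) were left out, and the 27022 probe sets with a mean log2 signal at or above the 40th percentile (6.14) were tested with limma 3.58.1 in R 4.3.3 (lmFit, eBayes with intensity trend, diet as the only term, two-sided, 4 residual degrees of freedom). Benjamini-Hochberg adjustment ran over 12689 gene representatives or, where stated, over all tested probe sets. The number of arrays limits the precision.

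The members and gene lists were chosen with earlier results of these data known. Genes named are all called members, the 6 largest positive and 6 largest negative differences, members whose probe sets disagree in sign, and up to 4 genes by smallest p from each list on mitochondrial translation or its regulators; other genes named were chosen after their values were seen or illustrate a count of probe sets, promoters or neighbours. Lists are described by counts and medians only. Alternatives were other scalings, offsets, filters, variance models, gene summaries and adjustments, a replicate block, and leaving out mice.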

Additional observations from a re-analysis of the deposited data

How the results depend on the processing

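Results are for 76 genes and 19 alternatives. The 7 members called higher became 33 with median centring, 2 without an intensity trend (Mrpl52 and Mrps21), 3 of 74 when a gene's probe sets were averaged, 4 without replicate 1 of both groups (24, 0.827, 2.92 and 1.95 percent of all genes, against 4.56 percent), and 2 to 6 with 1 mouse left out; the other alternatives gave 6 to 8. Members called lower were 0, except for 1, Mrpl50, with the 60th percentile filter, robust eBayes, array weights or adjustment over probe sets, and were 0 to 0 with 1 mouse left out. The median of the set was 0.46 with median centring, 0.12 to 0.2 with 1 mouse left out, and 0.14 to 0.19 otherwise. Mrpl13 turned to -0.12 when its probe sets were averaged, which includes one that failed the filter. Mrpl52 was called in all 19 alternatives, at 0.77 to 1.79 on the log2 scale, and Mrps21 in 18. Of the 25 members that the naming rule gave, which leave out those named after their values were seen, 12 changed sign in at least 1 alternative; 11 of these were not called.

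The replicate numbers are shared by both groups. With the replicate block, 6 members were called higher and 0 lower, with a median of 0.19; Mrpl13 was no longer called. The numbers were not taken as pairs because the labels do not say what they mark. Deviations of same-numbered mice correlated at 0.17, 0.11 and -0.04 across probe sets, and control replicate 2 correlated best with high fat replicate 3 (0.13). The value of 0.17, for replicate 1, was the highest between the groups. With 3 mice per group such correlations cannot decide whether mice were paired. With 3 arrays per group and no detection calls, differences of dim probe sets are uncertain in size.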

Other observations

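A few probe sets carry the symbol of a mitochondrial ribosomal protein together with that of another gene and were left out of the set. The brighter probe set of Mrpl30, which shares its annotation with the predicted gene Gm6238, had signals of 2107, 2179 and 1958 on the control diet against 3248, 2565 and 2486 on the high fat diet (log2 0.4, limma adjusted p = 0.0771 over probe sets). The probe set of Mrpl53, shared with Ccdc142, had signals of 1213, 1163 and 1267 against 1426, 1652 and 1463 (log2 0.32, limma adjusted p = 0.103 over probe sets). In both, the high fat mice lay above all control mice without passing the test. The probe set shared by Mrps34 and Nme3 was at -0.08, next to -0.07 for the representative of Mrps34.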
